A study of Mus musculus with 8 samples.

Results

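A set of 10 genes of the NF-κB system was followed across 8 mouse mammary tumors. The genes were chosen by function, with earlier results of these data known. Member counts set against all genes, and p-values of member pairs, are therefore descriptions and not independent tests. The set held the 5 genes for the transcription factor subunits (Nfkb1, Nfkb2, Rel, Rela and Relb), 3 for the classical inhibitors (Nfkbia, Nfkbib and Nfkbie), Bcl3 for an atypical inhibitor protein and Map3k14 for the kinase NIK. The deposited table held 35539 Ensembl gene IDs, 14835 averaged 1 TPM or more and were tested, and all 10 were among them. TPM gives a gene as its share of all transcripts after correction for length, so levels of different genes can be compared on this scale. HMMR-Tg tumors 5 to 8 carry the label HMMR Tg/Tg Brca1f/f Trp53+/-, and control tumors 1 to 4 the label Brca1f/f Trp53+/-. According to the methods of the study, both groups carried Blg-Cre, a recombinase under the beta-lactoglobulin promoter that pregnancy switches on in mammary epithelium, floxed Brca1 on both chromosomes and a heterozygous loss of Trp53. The HMMR-Tg mice also carried, on both Rosa26 alleles, human HMMR behind a stop signal that Cre removes. Brca1 loss and HMMR expression thus depend on the same recombinase. All mice were parous, untreated and of mixed background, the labels call them age-matched without giving an age, and no label ties a tumor to an animal, so the p-values below measure only the spread between these tumors.

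NF-κB factors are dimers of related subunits that bind κB sites in DNA. In the canonical arm, signals such as TNF activate the IκB kinase complex, IκB proteins are degraded, and dimers of RELA or c-REL with p50 (from Nfkb1) enter the nucleus. In the non-canonical arm, receptors such as CD40, LTβR and RANK stabilize NIK, which leads to the processing of p100 (from Nfkb2) to p52, the partner of RELB. Both arms feed back on themselves, since Nfkbia, Nfkb2, Relb and Rel are themselves textbook targets of NF-κB, and in the mammary gland the RANK to NF-κB route is known for its role in alveolar development. The comparison addressed here is whether RNA of either arm differed in tumors that form under HMMR overexpression, and how the arms compare tumor by tumor.

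Some facts of the samples bear on all values. The transgene is human and the gene models are mouse, so the table gives no direct check of it. Endogenous Hmmr lay between 13.0 and 20.2 TPM in HMMR-Tg tumors and between 9.39 and 15.2 TPM in control tumors. Of the epithelial markers, Epcam was at 477 TPM or more and Krt8 at 351 TPM or more in every tumor. The basal keratin genes varied: Krt14 was at 19.0 TPM in tumor 7 and up to 1131 TPM in tumor 5. Krt5 was at 0.052 TPM in tumor 7 and up to 298 TPM in control tumor 2. The study described the tumors it analyzed as keratin 14-positive and as negative or weak for keratin 8. How that relates to these RNA levels was not tested. Skeletal muscle markers summed to 351 TPM in HMMR-Tg tumor 6, and to 323 TPM in control tumor 1 and 52.3 TPM in control tumor 3, against at most 13.6 TPM in the other 5 tumors. A sum of 5 pan-leukocyte markers (Ptprc, Cd52, Coro1a, Laptm5 and Cd53) was 621 TPM in HMMR-Tg tumor 7 and 566 TPM in control tumor 2, and lay between 199 and 421 TPM in the others. HMMR-Tg tumor 7 also stood apart in milk protein RNA, with Csn3 at 3.69 TPM against at least 412 TPM in every other tumor.

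No member passed the test of HMMR-Tg against control tumors. In limma on log2(TPM + 1), 9 of the 14835 genes (0.0607%) had a Benjamini-Hochberg adjusted p under 0.05 and 0 of the 10 members did, with an adjusted p of 1.00 for each. At an unadjusted p under 0.05, the members again counted 0 of 10, against 3.46% of all genes, and in 0 of 10 did the genotypes have no overlap, against 2.23% of all genes (1.04% higher and 1.19% lower in HMMR-Tg tumors). The mean was higher in HMMR-Tg tumors for 9 of 10 members, against 48.7% of all genes, and the median difference was 0.47 log2 units over the members and -0.0095 over all genes tested. That median was 0.24 without HMMR-Tg tumor 7. The unadjusted count was 2 of 10 without control tumor 2 (Nfkbia and Nfkbie), 2 without HMMR-Tg tumor 6 (Nfkbib and Bcl3) and 2 without tumors 2 and 7 (Nfkbia and Nfkbie), and the adjusted count stayed at 0 in each case. In bulk tumors, fewer cells of a type and less RNA per cell cannot be told apart.

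The canonical subunits are described first. Nfkb1 (chromosome 3, 135247619 to 135354511, mm9), which encodes p105 and its product p50, was at 122, 77.1, 105 and 82.8 TPM in HMMR-Tg tumors 5 to 8, against 85.5, 104, 121 and 79.9 TPM in control tumors 1 to 4. The genotypes overlapped fully, with means of 96.9 ± 20.9 and 97.8 ± 18.9 TPM (SD, n = 4 each), and the log2 difference was -0.018 (95% interval -0.52 to 0.49, exact permutation p = 0.886). Nfkb1 was the member with the smallest spread, since its highest tumor exceeded its lowest by 1.59-fold. Rela (chromosome 19, 5637483 to 5648130), the gene of the transactivating subunit p65, was at 79.5, 72.5, 113 and 56.2 TPM in HMMR-Tg tumors, against 55.6, 67.4, 63.5 and 73.8 TPM in control tumors. HMMR-Tg tumor 7 was the highest and the other 7 tumors lay between 55.6 and 79.5 TPM (log2 difference 0.26, 95% interval -0.27 to 0.80, exact permutation p = 0.314). Rel (chromosome 11, 23641514 to 23670970), which encodes c-REL, a subunit best known from lymphoid cells, had the lowest level of the 10 genes. It was at 4.85, 3.65, 11.1 and 5.82 TPM in HMMR-Tg tumors, against 2.77, 7.58, 3.78 and 4.74 TPM in control tumors, with the highest value of each genotype in tumors 7 and 2 (log2 difference 0.34, 95% interval -0.51 to 1.18, exact permutation p = 0.486). Without tumor 7 the log2 difference was 0.063 for Rel and 0.085 for Rela, and leaving out tumor 8 gave 0.42 for Rela. Leaving out tumor 1, 2 or 6 gave differences of 0.16, 0.55 and 0.52 for Rel.

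Among the non-canonical genes, the highest tumor exceeded the lowest by 7.23-fold for Nfkb2, 5.95-fold for Relb and 2.71-fold for Map3k14, and HMMR-Tg tumor 7 was the highest for all 3. Nfkb2 (chromosome 19, 46379227 to 46386580), the gene of p100 and p52, was at 58.5, 55.5, 321 and 53.1 TPM in HMMR-Tg tumors, against 44.5, 87.4, 57.0 and 63.4 TPM in control tumors. Tumor 7 was 3.68-fold above the next tumor, while the other 3 HMMR-Tg tumors lay inside the control range. The log2 difference between genotypes was 0.49 (95% interval -0.72 to 1.71, exact permutation p = 0.686), and without tumor 7 it was -0.14. Relb (chromosome 7, 20191566 to 20214787), whose protein pairs with p52, was at 30.5, 25.7, 99.5 and 42.6 TPM in HMMR-Tg tumors, against 16.7, 49.9, 22.0 and 26.2 TPM in control tumors. HMMR-Tg tumors 5, 7 and 8 were above control tumors 1, 3 and 4, and control tumor 2 exceeded all HMMR-Tg tumors but tumor 7 (log2 difference 0.68, 95% interval -0.34 to 1.70, exact permutation p = 0.314). Map3k14 (chromosome 11, 103081076 to 103128786), which encodes the kinase that starts p100 processing, was at 19.2, 30.0, 41.3 and 15.6 TPM in HMMR-Tg tumors, against 15.3, 24.4, 15.5 and 18.1 TPM in control tumors. It was the single member for which HMMR-Tg tumor 6 exceeded every control tumor, and its genotypes overlapped through tumors 5 and 8 (log2 difference 0.44, 95% interval -0.29 to 1.17, exact permutation p = 0.200). Without tumor 7 the difference was 0.28 for Relb and 0.20 for Map3k14.

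Of the 10 genes, the inhibitor genes Nfkbia and Nfkbie had the largest log2 differences between the genotypes, within wide intervals. Nfkbia (chromosome 12, 56590398 to 56593634) encodes IκBα, which is degraded and remade within each round of canonical signaling. It was at 142, 175, 1011 and 179 TPM in HMMR-Tg tumors, against 63.6, 287, 117 and 79.0 TPM in control tumors. All 4 HMMR-Tg tumors were above control tumors 1, 3 and 4, and control tumor 2 lay above 3 HMMR-Tg tumors. The log2 difference was 1.18 (95% interval -0.29 to 2.65, exact permutation p = 0.200), and it was 0.52 without tumor 7 and 1.62 without tumor 2. Nfkbie (chromosome 17, 45692665 to 45700118), the gene of IκBε, had the same order of tumors at the top, with 29.3, 21.5, 90.5 and 24.1 TPM in HMMR-Tg tumors, against 10.2, 40.9, 15.5 and 18.8 TPM in control tumors. Again all 4 HMMR-Tg values exceeded those of control tumors 1, 3 and 4 (log2 difference 0.84, 95% interval -0.32 to 1.99, exact permutation p = 0.257), and the difference was 0.38 without tumor 7. Nfkbib (chromosome 7, 29543270 to 29552531), the gene of IκBβ, moved within a narrow range. It was at 28.7, 24.2, 40.5 and 36.3 TPM in HMMR-Tg tumors, against 16.8, 24.6, 25.5 and 25.0 TPM in control tumors. The genotypes overlapped only through HMMR-Tg tumor 6, and this gene had the smallest unadjusted p of the members (log2 difference 0.47, 95% interval -0.075 to 1.02, exact permutation p = 0.114).

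Bcl3 (chromosome 7, 20393811 to 20408119) encodes a nuclear IκB protein that binds p50 and p52 dimers and can activate transcription. It was at 51.9, 34.6, 79.9 and 52.7 TPM in HMMR-Tg tumors, against 27.3, 45.2, 34.3 and 46.3 TPM in control tumors. Tumors 5, 7 and 8 lay above every control tumor and tumor 6 lay inside the control range, with a log2 difference of 0.48 (95% interval -0.17 to 1.12, exact permutation p = 0.143), and of 0.28 without tumor 7. The smallest p that 4 against 4 tumors allow in this exact two-sided test is 0.0286, and no member reached it.

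**Figure D1:**
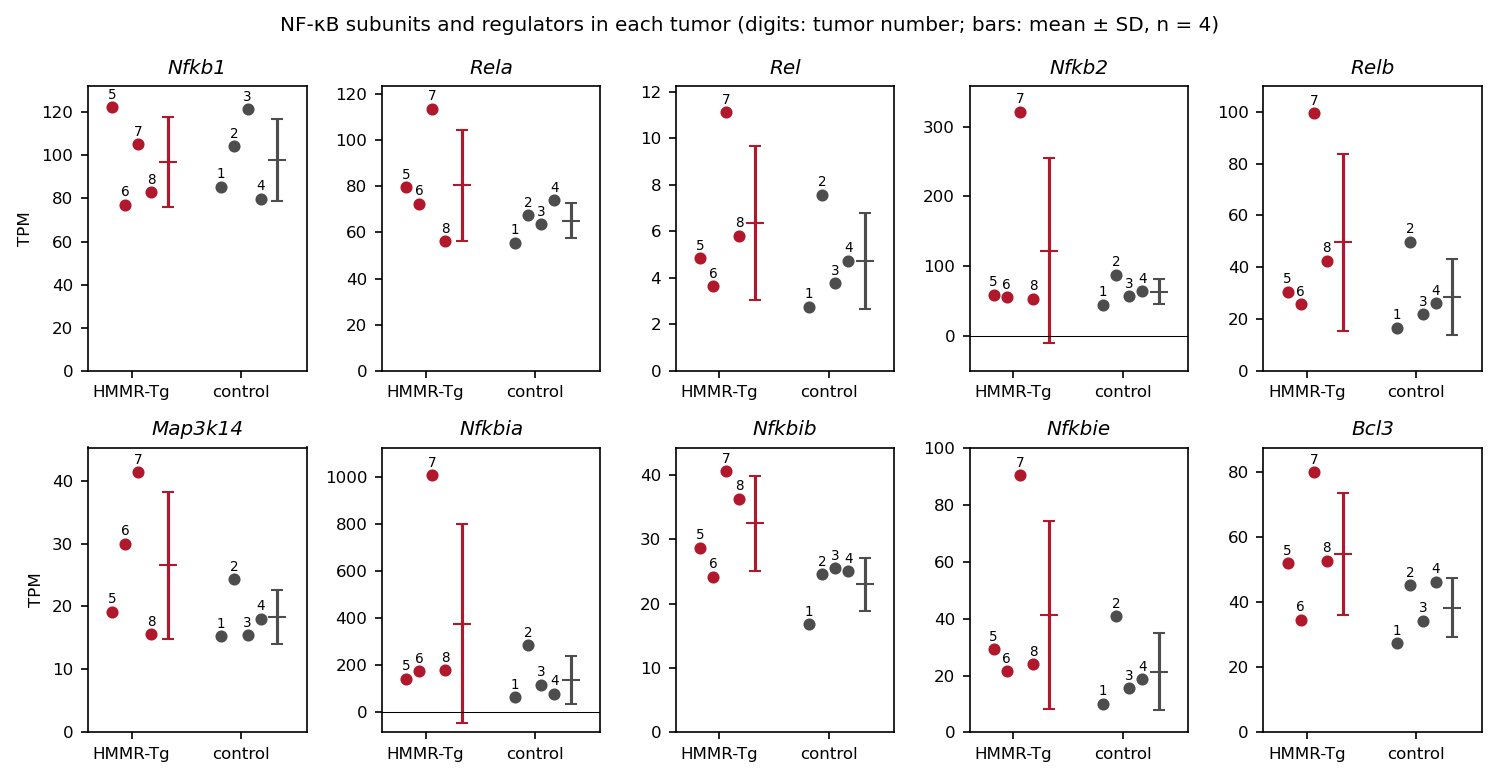
TPM (vertical axes, each gene on its own scale) of the 10 genes in HMMR-Tg tumors (left, red) and control tumors (right, gray), where points are tumors with their numbers and bars the mean ± SD of 4 tumors. Tumor 7 is the highest point for 9 of the 10 genes and lifts the HMMR-Tg mean most for Nfkb2 (321 TPM) and Nfkbia (1011 TPM), while Nfkb1 shows no such point.

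The levels over all 8 tumors set the genes in order. Nfkbia was highest, with a median of 159 TPM, followed by Nfkb1 (94.9), Rela (69.9), Nfkb2 (57.8), Bcl3 (45.7), Relb (28.3), Nfkbib (25.2), Nfkbie (22.8), Map3k14 (18.6) and Rel (4.79 TPM). The range of Rel, 2.77 to 11.1 TPM, did not reach the lowest tumor of any other member but Nfkbie, which had 10.2 TPM in control tumor 1. Ranges overlapped between every pair of neighbors from Nfkbia to Map3k14. Within tumors, Nfkb2 exceeded Bcl3 in 8 of 8 and Nfkb1 exceeded Rela in 7 of 8, whereas for the other 6 of these pairs the higher gene led in 5 or 6 of 8 tumors, so that their order was not set beyond the spread between tumors. Nfkb2 was below Nfkb1 in 7 tumors and above it in HMMR-Tg tumor 7.

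The same tumors stood at the ends of the range for most members. HMMR-Tg tumor 7 had the highest level of 9 members (all but Nfkb1), against 14% of all genes tested, and control tumor 1 had the lowest level of the same 9, against 15.8% of all genes. Among the 4 control tumors, tumor 2 was highest for 6 members (Map3k14, Nfkb2, Nfkbia, Nfkbie, Rel and Relb), against 22.5% of all genes. Tumor 7 exceeded every other tumor by at least 1 log2 unit, which is 2-fold, for Nfkb2, Nfkbia and Nfkbie, against 1.79% of all genes, and Relb missed that line at 0.98. The leukocyte marker sum was also highest in tumors 7 and 2, and its part in these values was not tested. Divided by that sum, Nfkb2 (0.518), Nfkbia (1.63), Nfkbie (0.146) and Relb (0.160 TPM per leukocyte marker TPM) had their highest value in tumor 7. The other 6 members had it in control tumor 4 or HMMR-Tg tumor 8, where the sum was smallest (199 and 289 TPM). Control tumor 2 then stayed the highest control for Nfkbia (0.506). It fell below control tumor 4 for Nfkb2 (0.154 and 0.318), Relb (0.088 and 0.131), Rel, Nfkbie and Map3k14. For Rela, Nfkbib and Bcl3 it was the lowest tumor. This ratio is a description, since bulk values do not tell which cells hold the RNA. Per leukocyte marker TPM, Rela and Nfkb1 in tumor 7 were at 0.183 and 0.170, and Nfkb1 was then lowest in tumor 7.

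The arms were then compared tumor by tumor. The canonical level was taken as the mean log2(TPM + 1) of Nfkb1, Rel and Rela, and the non-canonical level as that of Nfkb2, Relb and Map3k14. Non-canonical levels were 5.07, 5.17, 6.80 and 5.08 in HMMR-Tg tumors 5 to 8, against 4.56, 5.60, 4.81 and 5.01 in control tumors 1 to 4. Canonical levels were 5.28, 4.90, 5.72 and 5.00 in HMMR-Tg tumors, against 4.72, 5.305, 5.07 and 5.03 in control tumors. By these means, both arms ranked tumor 7 first, tumor 2 second and tumor 1 last. The canonical rank of tumor 2 leaned on Rel, the lowest gene, at 7.58 TPM second to tumor 7. Its Nfkb1 (104 TPM) lay below tumors 3, 5 and 7, and its Rela (67.4 TPM) below tumors 4 to 7. The arms parted in the middle, where tumor 6 held rank 3 by its non-canonical and rank 7 by its canonical level.

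The difference between the arms, non-canonical minus canonical, was -0.20, 0.27, 1.07 and 0.086 log2 units in HMMR-Tg tumors, against -0.16, 0.30, -0.26 and -0.020 in control tumors. Tumor 7 had the largest difference, and the other 3 HMMR-Tg tumors lay between -0.20 and 0.27, within the control range of -0.26 to 0.30. The means were 0.31 ± 0.55 in HMMR-Tg and -0.037 ± 0.24 in control tumors (SD, n = 4 each), 0.34 apart, and 0.088 apart without tumor 7. No p is given for these levels, because the genes were grouped with earlier results known. With the 3 classical inhibitors added to the canonical side and Bcl3 to the non-canonical side, tumor 7 was at 0.17, the other 7 tumors were between -0.25 and 0.078, and the means were 0.010 apart. Without Map3k14 the means were 0.39 apart, and with the arms as a log2 ratio of summed TPM 0.47 apart. Tumor 7 was the highest in both cases, at 1.77 and 0.94.

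**Figure D2:**
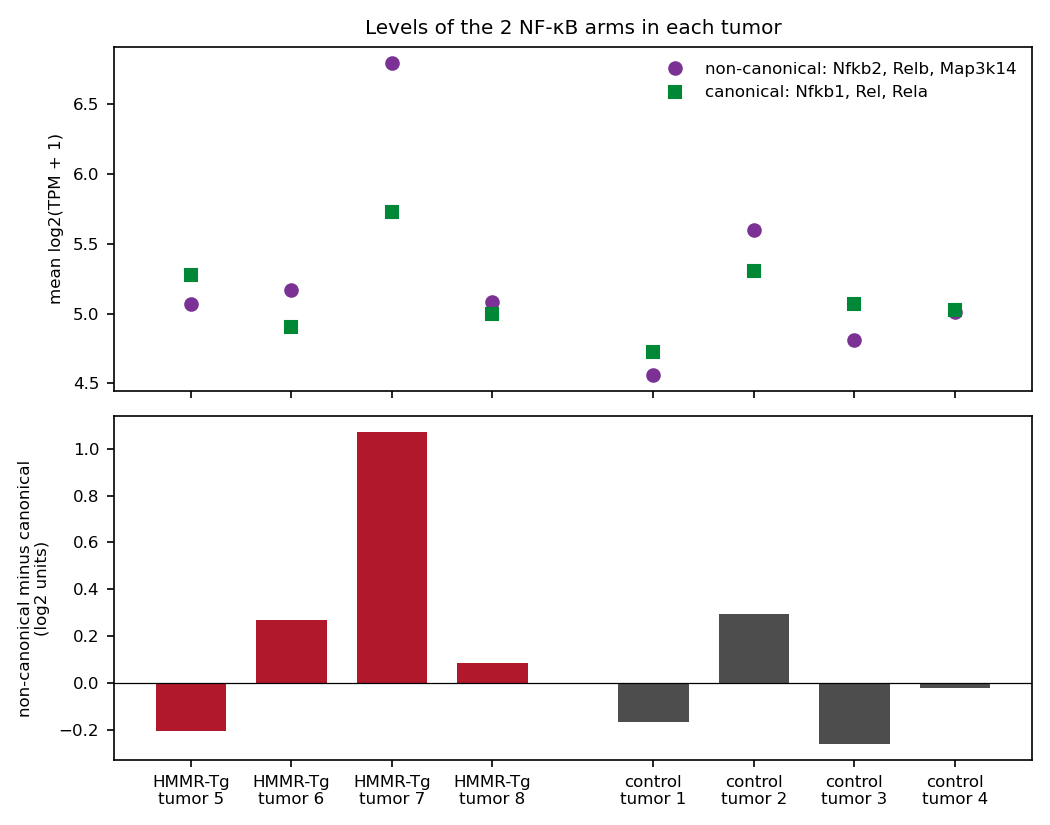
The upper panel plots the mean log2(TPM + 1) of the non-canonical genes (circles) and the canonical genes (squares) in each tumor, HMMR-Tg on the left and control on the right, and the lower panel their difference in log2 units. The bar of HMMR-Tg tumor 7 stands at 1.07, and those of the other 7 tumors lie between -0.26 and 0.30.

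Ratios of TPM within a tumor set Nfkb2 apart in tumor 7. The ratio of Nfkb2 to its paralog Nfkb1 was 0.478, 0.721, 3.05 and 0.641 in HMMR-Tg tumors, against 0.520, 0.838, 0.469 and 0.793 in control tumors, so that Nfkb2 exceeded Nfkb1 in tumor 7 alone. The ratio of Relb to Rela was 0.384, 0.354, 0.876 and 0.757 in HMMR-Tg tumors, against 0.301, 0.741, 0.346 and 0.354 in control tumors. Here tumors 7, 8 and 2 formed an upper set and the other 5 tumors lay between 0.301 and 0.384, across both genotypes. Of the summed TPM of the 5 subunits, Nfkb2 made up 49.4% in tumor 7 and 19.8 to 27.6% in the other tumors, and Nfkb1 16.2% in tumor 7 and 32.2 to 45.4% in the others. The sum itself was 651 TPM in tumor 7 and 205 to 316 TPM elsewhere.

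The balance of inhibitors to subunits varied with the same tumors. Summed TPM of Nfkbia, Nfkbib and Nfkbie divided by that of the 5 subunits was 0.677, 0.941, 1.75 and 0.994 in HMMR-Tg tumors, against 0.442, 1.11, 0.590 and 0.495 in control tumors. The 4 HMMR-Tg tumors thus lay above control tumors 1, 3 and 4, and control tumor 2 was second of all 8. Nfkbia made up 88.5% of the inhibitor sum in tumor 7 and 64.3 to 81.4% in the others.

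Members were correlated with each other across the 8 tumors on log2(TPM + 1), over 45 pairs with exact permutation p-values adjusted by Benjamini-Hochberg over the pairs. Adjusted p was under 0.05 for 24 pairs by Pearson's r and for 2 by Spearman's rho. A matching share over pairs of all genes is not given, so the count does not set the members apart. The median r over the 45 pairs was 0.79, and 0.49 without tumor 7. The closest pair was Rel and Relb, a canonical and a non-canonical subunit, with r = 0.98 (exact permutation p = 9.92e-05, adjusted 0.00446) and rho = 0.98 (exact permutation p = 0.000397, adjusted 0.0179). It stayed at r = 0.95 without tumors 1 and 7, the 2 tumors farthest from the median of Rel. Relb and Nfkbie had r = 0.97 (exact permutation p = 0.000397, adjusted 0.00737) and rho = 0.95 (exact permutation p = 0.00114, adjusted 0.0257), with r = 0.85 without tumors 2 and 7. The 10 pairs among Rel, Relb, Nfkbie, Nfkbia and Nfkb2 had r between 0.87 and 0.98, between 0.67 and 0.97 without tumor 7, and between 0.29 and 0.94 without tumors 2 and 7.

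Nfkb2 and Nfkbia had r = 0.91 (exact permutation p = 0.00553, adjusted 0.0178) and rho = 0.55 (exact permutation p = 0.171, adjusted 0.257). Their r was 0.29 without tumors 2 and 7, the lowest of the 10 pairs, so this relation rests on those tumors. Rela had r of 0.13 to 0.57 with the other members without tumor 7, against 0.30 to 0.87 with it. Without tumors 2 and 7, its r was 0.77 with Nfkb2, 0.60 with Nfkbie, 0.60 with Map3k14 and 0.13 to 0.39 with the other 6. Nfkb1 stood outside, with r between 0.026 and 0.32 in its 9 pairs (exact permutation p between 0.453 and 0.953). Without tumors 3 and 5, the 2 farthest from its median, those 9 values lay between 0.35 and 0.80. Correlations within a genotype were not computed, because 4 tumors are too few, and the labels give no batch within which to repeat them.

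**Figure D3:**
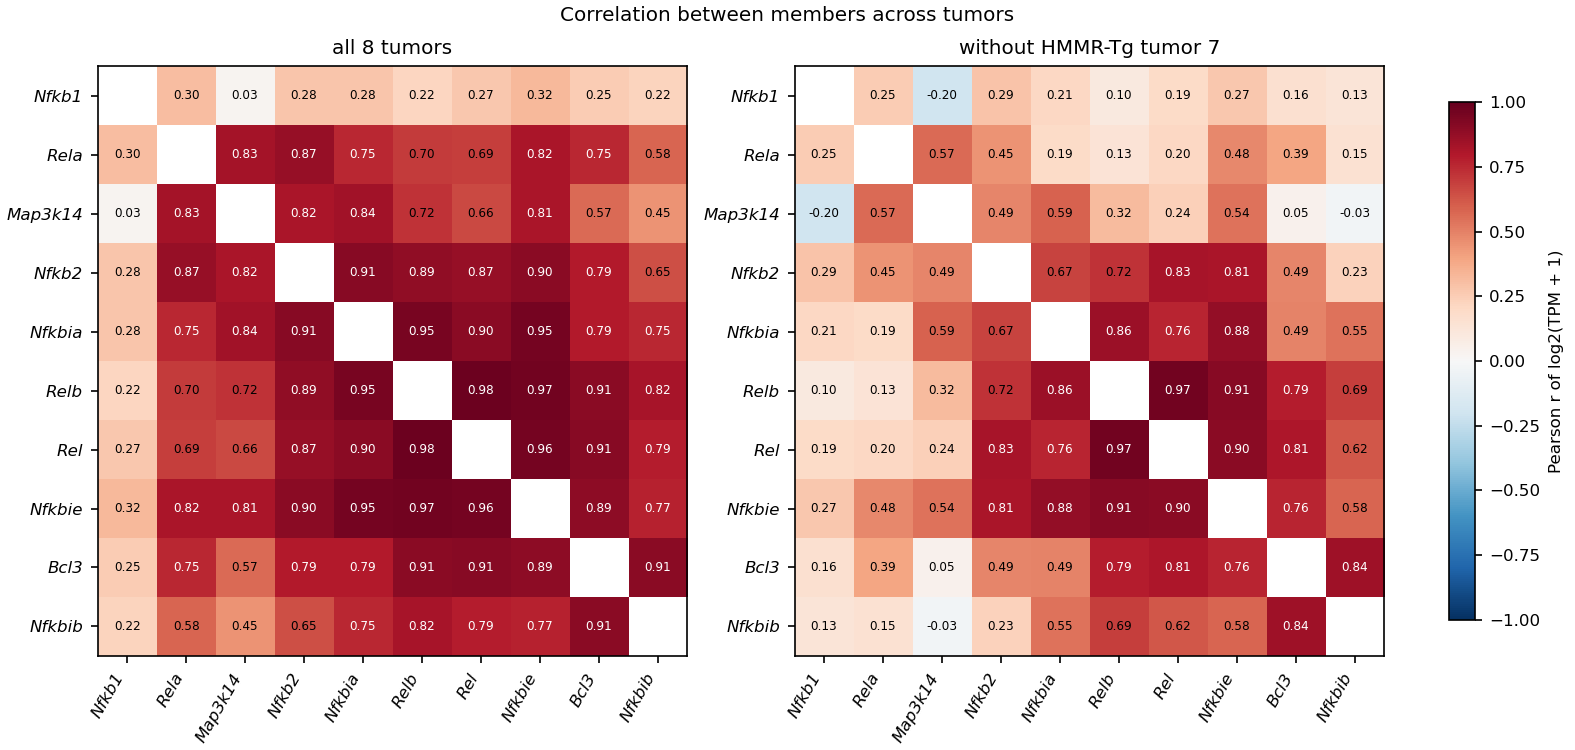
Pearson r between members on log2(TPM + 1), over all 8 tumors on the left and over 7 tumors without HMMR-Tg tumor 7 on the right, with color from -1 (blue) to 1 (red). The block of Nfkb2, Nfkbia, Relb, Rel and Nfkbie stays at 0.67 or above without tumor 7, whereas Nfkb1 has at most 0.32 with any member in either panel.

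Because members of this correlated set are known targets of NF-κB, the sequence before their starts was read for the κB consensus, the decamer that NF-κB dimers bind, on both strands. RefSeq promoter windows of 250 bases upstream of the start (build GRCm38.p6) were at hand for 8 members, and Nfkb1 and Relb had no entry. A match was present for Nfkb2, Nfkbia, Nfkbie and Rel and not for Bcl3, Map3k14, Nfkbib or Rela, while 7.25% of all 32851 windows of the same length held a match, and 8.23% of the 27025 genes had a window that did. A match is a description of letters and not of a bound site. The 4 windows are shown in the direction of transcription, 5′ to 3′, with matches in capitals: Nfkb2 at chr19:46304487-46304736 (plus strand), where overlapping matches begin 39 and 38 bases before the start and another 11 bases before it, Nfkbia at chr12:55492648-55492897 (minus strand), with a match 29 bases before, Rel at chr11:23770970-23771219 (minus strand), with overlapping matches 92 and 91 bases before, and Nfkbie at chr17:45555450-45555699 (plus strand), with a match 106 bases before.
Nfkb2: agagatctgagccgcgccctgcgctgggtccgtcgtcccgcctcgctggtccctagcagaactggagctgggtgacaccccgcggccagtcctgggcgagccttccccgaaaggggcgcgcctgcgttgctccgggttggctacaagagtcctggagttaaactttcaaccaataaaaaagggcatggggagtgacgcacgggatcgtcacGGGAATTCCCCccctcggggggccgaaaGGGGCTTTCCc
Nfkbia: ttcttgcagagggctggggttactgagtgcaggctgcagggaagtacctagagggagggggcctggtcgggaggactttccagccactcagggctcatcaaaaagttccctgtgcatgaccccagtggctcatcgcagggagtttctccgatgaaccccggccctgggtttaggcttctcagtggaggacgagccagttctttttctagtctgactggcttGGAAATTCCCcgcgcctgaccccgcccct
Rel: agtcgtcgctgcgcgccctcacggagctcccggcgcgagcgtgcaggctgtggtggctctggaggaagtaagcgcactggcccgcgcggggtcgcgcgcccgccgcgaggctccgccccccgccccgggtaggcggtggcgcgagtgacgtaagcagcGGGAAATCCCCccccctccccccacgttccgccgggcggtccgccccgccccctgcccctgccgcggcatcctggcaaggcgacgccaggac
Nfkbie: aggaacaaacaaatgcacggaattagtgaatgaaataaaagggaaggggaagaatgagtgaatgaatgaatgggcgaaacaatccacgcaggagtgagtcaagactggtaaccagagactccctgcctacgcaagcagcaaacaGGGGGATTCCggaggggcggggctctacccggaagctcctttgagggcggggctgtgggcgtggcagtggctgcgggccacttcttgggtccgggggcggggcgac
The other Nfkb2 starts in RefSeq also had a match each, 236 and 225 bases upstream.

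By the same measure, the genes most like Relb and Nfkb2 were ranked among 12880 genes with a symbol, as a description over the 8 tumors with no p. For Relb these were Rel (r = 0.98), Smap2 (0.98), which encodes an Arf GTPase-activating protein, Sirpa (0.97), the myeloid receptor for CD47, Rnd1 (0.97) and Nfkbie (0.97). Of the 5 genes closest to Relb in these tumors, 2 were therefore members. For Nfkb2 they were Tox (0.99), Tnfrsf4 (0.99), the T cell costimulatory receptor OX40, Rassf2 (0.98), Gpr55 (0.98) and Spib (0.98), an Ets factor known from B cells and intestinal M cells. These 5 were highest in tumor 7: Spib was at 362 TPM there and at most 2.94 TPM in the other tumors, and Tox at 24.4 and at most 2.03 TPM. Tnfrsf4, at 40.7 TPM in tumor 7 and 2.21 to 9.95 TPM elsewhere, was the closest of them without tumor 7, with r = 0.96 over the remaining 7 tumors. Over the same 7, Tox, Rassf2, Gpr55 and Spib had r between 0.77 and 0.84. T cell markers summed to 27.2 TPM in tumor 7, 24.3 TPM in control tumor 2 and 6.61 to 10.7 TPM in the others, and their part in these likenesses was not tested. B cell markers summed to 4.31 TPM in tumor 7 and 3.12 to 3.84 TPM in the other HMMR-Tg tumors, against 10.2 TPM in control tumor 2 and 1.92 to 3.34 TPM in the other control tumors. Of these, Cd79b was highest in tumor 7, at 2.24 TPM, and Pax5 lowest there, at 0.0064 TPM. Tumor 7 was also highest for 6 of 7 dendritic cell markers, against 14% of all genes tested, but only 2 of the 7 averaged 1 TPM or more. Of the 6, Flt3 (0.985 TPM), Xcr1 (0.762 TPM) and Clec9a (0.746 TPM) were below 1 TPM even in tumor 7. Zbtb46 was at 12.8 TPM there (at most 6.52 elsewhere) and Ccl22 at 3.70 TPM (at most 1.48). The sum of the 7, most of it Fscn1, lay between 45.4 and 130 TPM in HMMR-Tg and between 60.9 and 108 TPM in control tumors. The part of these cells in the likenesses was not tested.

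Upstream and downstream genes of the pathway were taken from 6 lists, written from general knowledge with earlier results of these data known. Of 77 genes, 72 were tested, 0 passed the threshold (adjusted p of 1.00 for each), and the mean of 51 was higher in HMMR-Tg than in control tumors. At an unadjusted p under 0.05, 9 were higher in HMMR-Tg tumors and 0 lower, against 1.62% and 1.83% of all genes, and the median difference over the 72 was 0.18. The kinase complex and the adaptors that switch it on, among them Chuk, Ikbkb, Ikbkg and Map3k7, were the most even: 9 of 20 had a higher and 11 a lower mean, with a median of -0.034. Tab3 and Tab1, binding partners of the kinase TAK1, had the smallest p of this list, with log2 differences of -0.34 (exact permutation p = 0.0857) and -0.29 (exact permutation p = 0.143). Of 13 tested genes of the non-canonical switch (receptors, ligands and the TRAF and cIAP proteins that degrade NIK), 11 had a higher mean. Its smallest p belonged to the TNF receptor gene Tnfrsf1b (log2 difference 0.70, exact permutation p = 0.257) and to the cIAP2 gene Birc3 (0.79, exact permutation p = 0.343).

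The genes with the lowest p lay among targets and feedback regulators. Of 19 tested canonical targets, the mean of 17 was higher in HMMR-Tg tumors, and the median difference was 0.76. The acute-phase gene Saa3 was at 17.8, 41.5, 45.2 and 96.4 TPM in HMMR-Tg tumors, against 6.31, 5.61, 25.1 and 2.19 TPM in control tumors (log2 difference 2.45, 95% interval 0.99 to 3.92, exact permutation p = 0.0571). The neutrophil chemokine gene Cxcl2 was at 24.0, 17.0, 41.6 and 55.1 TPM in HMMR-Tg tumors, against 6.51, 17.2, 11.8 and 8.76 TPM in control tumors (log2 difference 1.49, 95% interval 0.58 to 2.41, exact permutation p = 0.0571). For both, a single control tumor reached the HMMR-Tg range, tumor 3 for Saa3 and tumor 2 for Cxcl2, and the highest tumor was tumor 8 and not tumor 7. Neutrophil markers summed to between 31.9 and 498 TPM in HMMR-Tg and between 83.0 and 417 TPM in control tumors, lowest in tumor 7. Endothelial markers summed to between 77.1 and 153 TPM in HMMR-Tg and between 53.3 and 65.3 TPM in control tumors, without overlap and highest in tumor 8. Fibroblast markers summed to 2191 TPM in tumor 8, 444 to 815 TPM in the other HMMR-Tg tumors and 223 to 1058 TPM in control tumors. The part of these cells in the target values was not tested. Between genotypes, 4 of the 72 genes did not overlap, all higher in HMMR-Tg tumors, against 1.04% of all genes: Il1b, Il6, Csf2 and the adaptor gene Tank. The margins were narrow. The lowest HMMR-Tg and the highest control tumor were at 53.7 and 53.3 TPM for Il1b and at 0.491 and 0.473 TPM for Il6. For Csf2 they were at 1.11 and 0.901 TPM. Il6 was at 14.4 and 18.4 TPM in tumors 7 and 8 and at most 1.04 TPM in the others.

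Tank, whose protein binds TRAF proteins and restrains their signaling, was at 67.6, 67.2, 186 and 102 TPM in HMMR-Tg tumors, against 60.2, 64.7, 51.7 and 50.9 TPM in control tumors. The lowest HMMR-Tg tumor lay just above the highest control tumor, and the exact permutation p was 0.0286, the smallest possible. Traf1, an NF-κB target that retains cIAP proteins at receptors, was at 38.1, 33.6, 94.1 and 13.8 TPM in HMMR-Tg tumors, against 17.6, 24.9, 10.4 and 3.87 TPM in control tumors (log2 difference 1.54, 95% interval 0.14 to 2.94, exact permutation p = 0.0857). Among other IκB proteins, Nfkbiz, the gene of the nuclear protein IκBζ, was at 44.1, 19.5, 75.9 and 86.7 TPM in HMMR-Tg tumors, against 23.4, 29.0, 26.6 and 14.2 TPM in control tumors (log2 difference 1.09, 95% interval 0.086 to 2.09, exact permutation p = 0.114). Nfkbid, its relative IκBNS, differed by 0.41 (exact permutation p = 0.257). Of the 5 tested non-canonical targets, 4 had a higher mean, with the smallest p for the ectoenzyme gene Bst1 (log2 difference 1.87, exact permutation p = 0.143) and the adhesion molecule gene Madcam1 (0.81, exact permutation p = 0.829). Madcam1 was at 39.8 TPM in tumor 7 and at most 2.55 TPM in the other 7, and the other HMMR-Tg tumors were at 1.00 TPM or less.

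Tumor 7 was then read across the pathway. Its log2(TPM + 1) minus the mean of the other 7 tumors had a median of 2.05 over the 3 classical inhibitors, 1.76 over the 3 non-canonical genes, 0.76 over the 3 canonical subunits and 1.10 over all 10 members, against -0.015 over all genes tested. Outside the members the same median was 1.32 over canonical targets, 0.54 over the non-canonical switch, 0.21 over feedback inhibitors, 0.20 over the kinase complex and its adaptors and -0.35 over non-canonical targets. Of the 72 genes, 10 exceeded every other tumor by at least 1 log2 unit in tumor 7, against 1.79% of all genes: Birc2, Cd40 and Ltb of the non-canonical switch, Tnfaip3, Tnip1 and Traf1 of the feedback inhibitors, Ccl5, Ccl20 and Icam1 of the canonical targets, and Madcam1. A single gene, the deubiquitinase gene Cyld, lay as far below, against 0.452% of all genes.

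**Figure D4:**
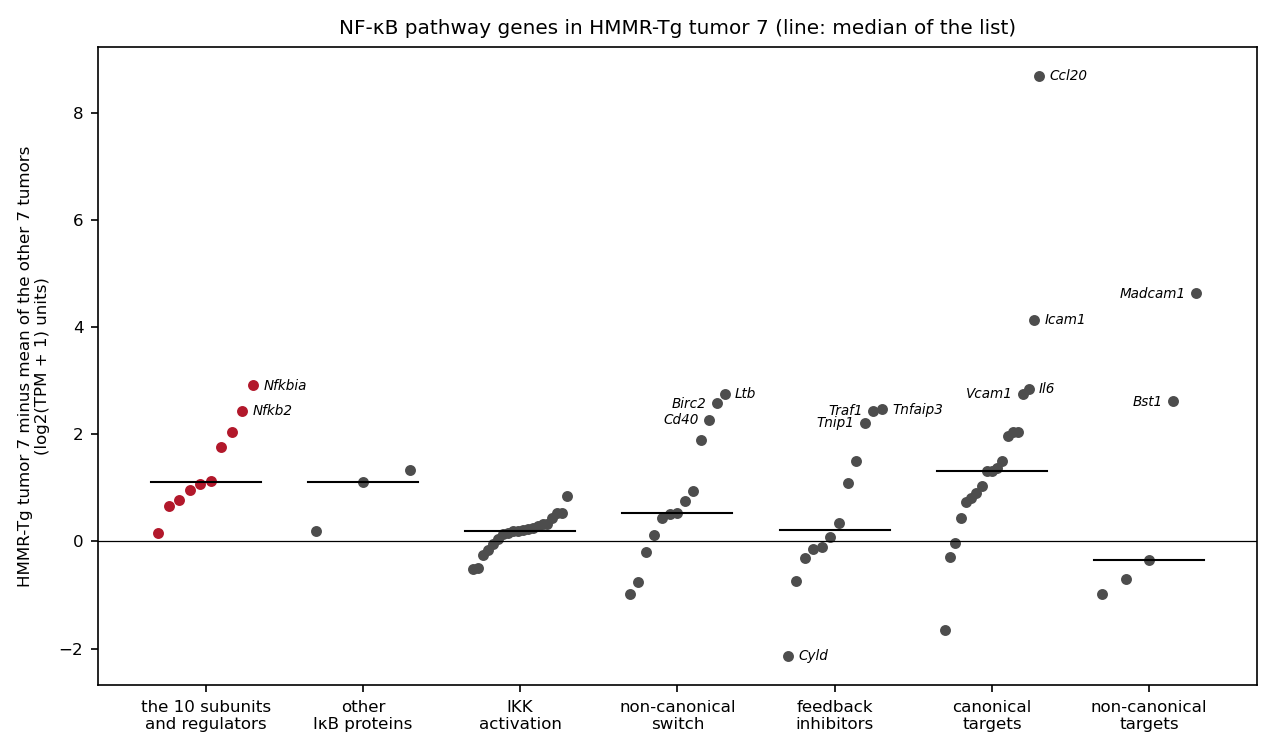
Log2(TPM + 1) of HMMR-Tg tumor 7 minus the mean of the other 7 tumors, for the 10 genes (red) and for 6 lists of other pathway genes (gray), with a line at the median of each list. The members center on 1.10 and the kinase complex and its adaptors on 0.20, and Ccl20 and Cyld mark the ends.

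The genes around Nfkb2, Relb and Bcl3 were examined last. For the 5 nearest tested protein-coding genes on either side, the same tumor 7 deviation had a median of 0.44 around Nfkb2, whose own value was 2.43, of 0.15 around Relb (own value 1.76) and of 0.51 around Bcl3 (own value 0.96). Tumor 7 was the highest tumor for 3 of 10 neighbors of Nfkb2, 1 of 10 of Relb and 1 of 10 of Bcl3, against 14% of all genes tested. The counts at Relb and Bcl3 did not exceed that share, and Apoe and Tomm40 were neighbors of both genes. Of the 3 at Nfkb2, Cuedc2 (36.4 TPM, at most 35.8 elsewhere) and Actr1a (155 TPM, at most 151 elsewhere) led narrowly. The neighbor with the largest deviation at Nfkb2 was Psd, at 1.65, whose gene model overlaps the last bases of that of Nfkb2. At Relb it was Apoc1, at 3.15, which was listed at 0 in at least 1 other tumor and was not highest in tumor 7. At Bcl3 it was Ceacam16, at 1.16, with 5.25 TPM in tumor 7 and up to 15.0 TPM elsewhere.

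**Figure D5:**
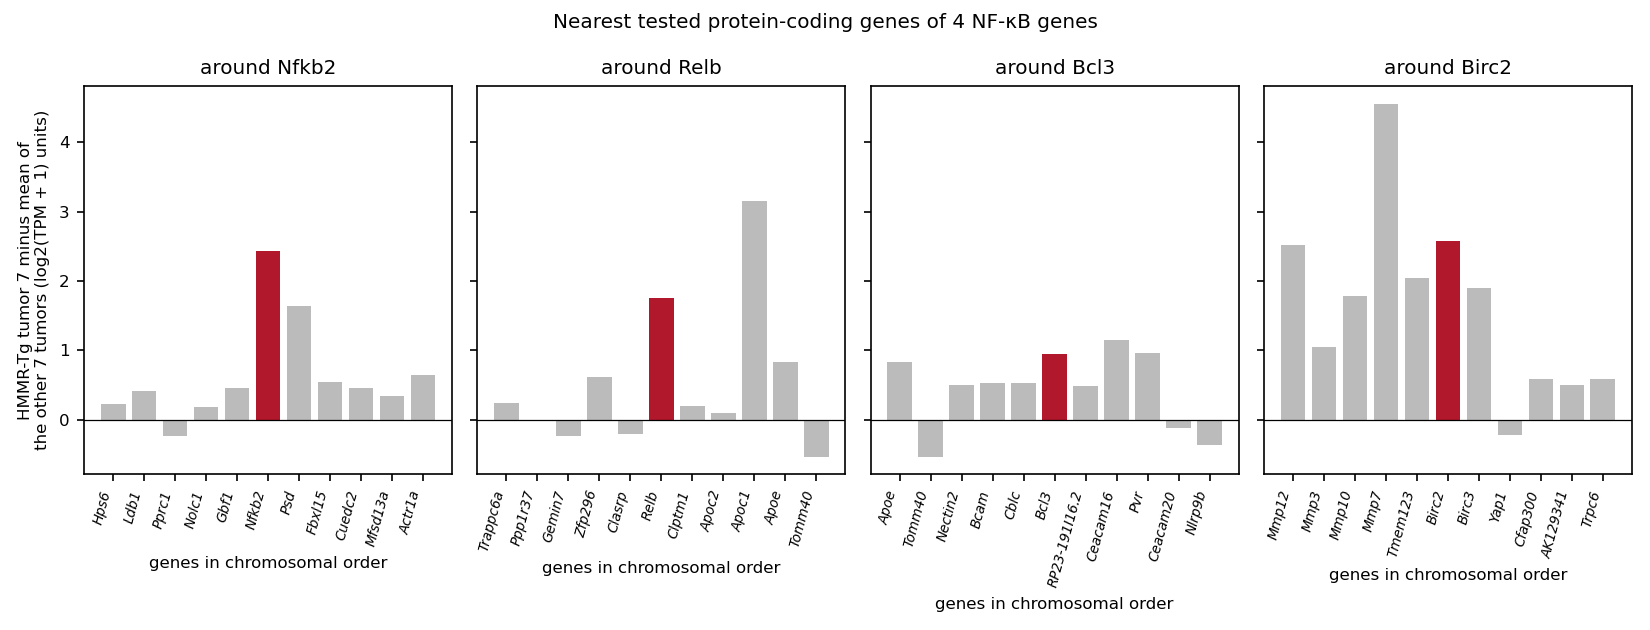
Log2(TPM + 1) of HMMR-Tg tumor 7 minus the mean of the other 7 tumors for Nfkb2, Relb, Bcl3 and Birc2 (red) and the 5 nearest tested protein-coding genes on either side in chromosomal order (gray). Nfkb2 stands at 2.43 over neighbors with a median of 0.44, and Birc2 at 2.57 over neighbors with a median of 1.42.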

How the data were processed

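RNA of 8 bulk mammary tumors was measured, 4 per genotype. The deposited values are gene-level TPM computed by the authors, and their depth is unknown, since TPM keeps no read number, so no counting interval was given. The column sums lay between 994001 and 994984. The sources differ on the route: the study's methods describe Kallisto, tximport and single-end reads, while STAR 2.4.0f1, bedtools and SAMtools 0.1.18 stand in the processing notes of the submitters. Which of them gave the table is not settled, and it matters for genes with near-identical copies. Columns not used counted 0. Symbols and mm9 positions came from GENCODE M1 by Ensembl ID with newer RefSeq symbols, and 25388 IDs had one.

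Genes that averaged 1 TPM or more were tested on log2(TPM + 1), which understates changes of low genes, with limma 3.58.1 in R 4.3.3 (empirical Bayes with trend, two-sided) and Benjamini-Hochberg adjustment over all 14835 genes at 0.05. The fit was tested on simulated data. Intervals are at 95%. Single genes were also compared by an exact two-sided permutation test over 70 arrangements of the tumors. The remaining steps ran in Python 3.11.15 with scipy 1.17.1, numpy 2.4.6, matplotlib 3.10.9 and pandas 2.3.3.

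The members, lists and alternatives were chosen with earlier results of these data known. The text names all members, from each pathway list any gene past the threshold and the 2 with the smallest p, the 5 genes most like Relb and Nfkb2, and, of the 5 nearest genes on either side of Nfkb2, Relb and Bcl3 (all plotted), the gene with the largest tumor 7 deviation. Other genes were named after their values were seen. The arms were also defined with the inhibitors and Bcl3 added, without Map3k14, and as a log2 ratio of summed TPM. Tried as alternatives were a filter at 5 TPM and none, pseudocounts of 5 and 0.1, median-of-ratios scaling, quantile normalization, moderation without trend or with robust settings, leaving out tumors singly, leaving out tumors 1, 3 and 6, which had the most skeletal muscle RNA, and, added after seeing the data, leaving out tumors 2 and 7.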

Additional observations from a re-analysis of the deposited data

Results flagged for a closer look

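In groups of 4 tumors, 52 sets of values were examined for a tumor far from the other 3, and 6 were found. Chance gives about 1 in 20 for independent sets. These sets share tumors and genes, and the genes were chosen with earlier results known, so that rate is no yardstick for the count. Among HMMR-Tg tumors, tumor 7 was far above the others for Nfkb2, at 321 TPM, for Nfkbia, at 1011 TPM, for Madcam1, at 39.8 TPM, and for the ratio of Nfkb2 to Nfkb1, at 3.05. Among control tumors, tumor 1 was far below the others for Nfkbib, at 16.8 TPM, and tumor 2 was far above the others for the ratio of Relb to Rela, at 0.741. Of these 6, 4 are in tumor 7, and 3 of the 4 rest on Nfkb2 or Nfkbia. Madcam1 passed narrowly, with a gap of 0.831 of the range on log2(TPM + 1) against a critical value of 0.829.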

How the results depend on the processing

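The count of members past the threshold was 0 under every setting run. For the 10 members and the settings other than leaving out single tumors, 99 of 100 differences kept their direction and stayed short of the threshold, and 1 turned: the Nfkb1 difference, -0.018, became 0.16 without tumors 1, 3 and 6. Leaving out single tumors gave -0.14 to 0.091 for Nfkb1, with 4 of 8 values turned, and -0.14 to 0.72 for Nfkb2, with the value without tumor 7 turned. The other 8 members kept their direction. Over all genes, 9 passed in the full set, 6 to 10 with a tumor left out, 0 without tumors 1, 3 and 6, where 5 tumors remain, and 4 without tumors 2 and 7. The arm difference between the genotypes, 0.34, ranged from 0.088 without tumor 7 to 0.51 without tumor 5 when single tumors were left out. It was 0.010 with the inhibitors and Bcl3 added to the arms, 0.39 without Map3k14 and 0.47 as a log2 ratio of summed TPM. No paired analysis was possible because the tumor numbers are not shared between the genotypes. TPM gives no depth, so the precision of low genes such as Rel could not be stated.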

Other observations

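Outside the genes named by rule, tumor 7 held the largest single gap of all 12881 ranked genes at an NF-κB target: Ccl20, the chemokine gene for CCR6-bearing cells, was at 1432 TPM in HMMR-Tg tumor 7 and at most 5.43 TPM in the other tumors. Icam1, a leukocyte adhesion molecule gene, was at 345 TPM in tumor 7 and at most 44.5 TPM elsewhere. Aire, a thymic regulator gene known as a target of RANK and CD40 signaling, was at 60.1 and at most 3.93 TPM. By size of gap, Icam1 held place 31 and Aire place 17. Many other leading genes are not in the pathway lists, such as Cr2, Ly6k and Ly6i at places 2, 4 and 6.

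Among the pathway genes, Birc2 was high and Cyld low in tumor 7. Birc2 (chromosome 9, 7818236 to 7835255, mm9), the gene of the cIAP1 ubiquitin ligase, was at 165 TPM in tumor 7 and at most 43.9 TPM in the others. Its chromosomal neighborhood was also high: the 10 nearest tested genes had a median deviation of 1.42 log2 units. Of these, 6 of 10 had their highest value in tumor 7, against 14% of all genes tested. Among them were Tmem123 at 386 TPM (at most 167 elsewhere), Birc3 at 216 TPM (at most 140) and Mmp7 at 63.2 TPM (at most 13.2). Yap1, in the same stretch, deviated by -0.22. Cyld (chromosome 8, 91220927 to 91275844), the gene of a deubiquitinase that restrains NF-κB signaling, was at 4.79 TPM in tumor 7 and between 20.4 and 27.8 TPM in the other tumors. Around Cyld, 7 of 10 neighbors deviated below 0, with a median of -0.41 against -2.14 for Cyld itself and -0.015 over all genes tested. The nearest, Nod2, was at -0.29, and Snx20 (0.67) and Nkd1 (0.74) on the same side were above 0. On the other side the neighbors start 1550 to 2520 kb away, among them Chd9, the lowest at -1.34.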
